A study of Mus musculus with 12 samples.

Results

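The DNA repair and damage checkpoint genes Rad23b, Xpa, Rpa3, Aptx, Nbn, Rad54b, Rad1 and Mms22l were followed by RNA-seq in brain sections from wild-type mice. They are 8 of 56923 rows of the deposited table and were chosen by name and position, because their rows lie in 4 stretches of chromosomes 4, 6 and 15 where row levels follow annotated exons. The control group was aCSF (artificial cerebrospinal fluid) alone and the treated group was aCSF with L-fucose, a hexose found at the ends of many glycan chains on cell surface proteins and lipids; each had 6 libraries and 5 hours of incubation. The labels give genotype WT and tissue Brain for all 12 libraries and no strain, age, sex, brain region or L-fucose concentration. The titles give the libraries of both groups the same run of WT numbers. Nothing in the labels says whether the libraries of a group came from separate animals. The p-values therefore measure only the spread between these libraries, which may be technical.

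Cells remove DNA damage by several routes. Nucleotide excision repair cuts out bulky lesions, single-strand break repair cleans and reseals nicks, and homologous recombination repairs broken ends with a sister copy, which needs replicated DNA. Mature neurons do not divide. They rely on excision and single-strand break repair for life, and inherited loss of XPA or aprataxin leads to neurodegeneration.

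The libraries held from 9191687 to 18563078 reads, with a median of 11168285. Genes are described here only where their rows lie in the 4 stretches, called in register below; outside them, whether a row's name tells which transcript was counted was not checked. The stretches held 1085 rows, of which 349 were tested. Over each of the 4 stretches, the correlation of level with protein-coding exons was highest when positions were not displaced, at 0.728 to 0.797, against at most 0.655 for displacements beyond 1000 bp. In windows of 80 rows around each of the 8 genes the best displacement was between -500 and 1000 bp. Around Nbn (0.770 with no displacement, 0.772 at best beyond 1000 bp), Rad1 (0.741 and 0.733) and Mms22l (0.814 and 0.789) the 2 values were close. Around Rad23b they were 0.664 and 0.614. Displacements under 500 bp were not tested. aCSF 5 and aCSF 6 stood apart in rows above 0, with 14340 and 14856 against at least 16514. They also had the highest shares of counted reads in rows named as mitochondrial, 41.9% and 44.8% against 27.6% to 40.5% elsewhere. L-fucose 6, at 40.5%, was close to aCSF 5, and the mitochondrial rows lie outside the stretches.

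The 8 neuronal markers in register ran from Grin3a, an NMDA receptor subunit, at 98.0 ± 16.7 normalized reads per kb of exon to Basp1, a growth cone protein, at 11609 ± 1022 (SD, n = 12). Of these, 7 were above the median of the tested rows in register, 105.7, and Grin3a was below it. Normalized reads are reads over the library's size factor, which evens out depth. Of the marker lists, 8 of 11 neuronal genes, 1 of 9 glial genes (Ptprz1), 2 of 7 vascular, fibroblast and choroid plexus genes, 1 of 7 microglial and leukocyte genes (Lyn) and 5 of 31 genes of S phase and cell division lay in register. None of these 17 was at 0 in every library. Defining markers such as Rbfox3, Gfap, Mbp and Mki67 were outside the register and were not used.

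The sequences before the starts of the most and the least abundant of the 8 genes are shown, because these genes set the ends of the range of levels. Each is 250 bases before the RefSeq start in GRCm38.p6, written 5′ to 3′ on the strand of the gene. Rad23b is at chr4:55349792-55350041 (plus strand) and Mms22l at chr4:24496201-24496450 (plus strand). Capitals mark motif matches.
Rad23b: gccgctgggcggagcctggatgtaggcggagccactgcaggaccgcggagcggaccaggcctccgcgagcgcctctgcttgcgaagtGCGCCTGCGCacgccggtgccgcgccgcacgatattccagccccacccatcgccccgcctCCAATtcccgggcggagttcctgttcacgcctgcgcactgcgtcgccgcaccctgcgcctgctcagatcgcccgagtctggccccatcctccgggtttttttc
Mms22l: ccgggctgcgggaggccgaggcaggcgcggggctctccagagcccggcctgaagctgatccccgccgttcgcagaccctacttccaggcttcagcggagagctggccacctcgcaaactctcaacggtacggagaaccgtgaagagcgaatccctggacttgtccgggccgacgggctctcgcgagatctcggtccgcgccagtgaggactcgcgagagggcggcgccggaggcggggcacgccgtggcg
Both windows are rich in G and C, at 70.8% each, against a median of 52.4% over 32817 promoter windows of that length. The Rad23b window holds the core bound by NRF1 (GCGC, any base, then TGCGC), which 3.73% of all windows hold on either strand, and CCAAT, which 33.8% hold. The Mms22l window has 32 CpG pairs and none of the motifs searched, which were these 2, the ETS core CCGGAAG (in 6.9% of windows), the cAMP response element TGACGTCA (1.55%) and the E2F sites TTTCCCGC (0.893%) and TTTGGCGC (0.417%), each on both strands. TGACGTCA is its own reverse complement, and no match to one motif overlapped a match to another in these windows.

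Rpa3 and Rad1 start back to back with another gene on the opposite strand, and the stretch between the 2 starts is shown for each. The Rpa3 start lies 115 bp from that of Umad1 and the Rad1 start 71 bp from that of Brix1, a ribosome assembly factor, in GENCODE M21. The stretches are chr6:8259174-8259287 (minus strand, toward Rpa3) and chr15:10485948-10486017 (plus strand, toward Rad1), in RefSeq sequence of GRCm38.p6, with capitals for CCAAT on the opposite strand.
Rpa3: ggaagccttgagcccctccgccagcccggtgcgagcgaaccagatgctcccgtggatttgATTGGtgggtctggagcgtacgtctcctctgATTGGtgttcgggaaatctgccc
Rad1: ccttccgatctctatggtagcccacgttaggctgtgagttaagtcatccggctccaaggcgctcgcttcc
Of the 8 genes, 6 had a window in the RefSeq table. The ETS core was found 3 times before Rpa3, where 2 of the matches overlap on opposite strands, and 1 time before Rad1; none lies whole inside the stretches shown. The window of Aptx held TGACGTCA 1 time, from 17 bp before its start. A match is only a run of letters, and no binding was measured.

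The 8 genes spanned a 570-fold range of level per exon length. Rad23b, which with XPC recognizes distorted DNA and also carries ubiquitylated proteins to the proteasome, was the highest at 1455 ± 104.1 normalized reads per kb (SD, n = 12). Of the 349 tested rows in register, 19 had a higher level per kb. Nbn, the nibrin subunit of the MRE11 complex that senses broken ends, followed at 266.9 ± 50.4, and Xpa, the scaffold that verifies the lesion before excision, at 188.7 ± 25.9. Aptx, the aprataxin that removes adenylate left by failed ligation at nicks, was at 154.3 ± 16.6, and Rpa3, the smallest subunit of the single-stranded DNA binding protein RPA, at 126.4 ± 26.7. These 5 genes lay above the median of the tested rows in register, 105.7 normalized reads per kb.

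Rad1, Rad54b and Mms22l lay below that median. Rad1, a subunit of the checkpoint clamp loaded at stalled forks, was at 36.4 ± 7.59 normalized reads per kb, and Rad54b, a DNA translocase of the recombination machinery, at 16.1 ± 3.31. Mms22l, which acts with TONSL at damaged replication forks, was the lowest at 2.55 ± 1.24, and 345 of the 349 rows were above it. Every neighbouring pair in this order differed by a two-sided paired exact permutation test over the 12 libraries, with adjusted p from 0.000854 to 0.00244 over 7 pairs. Ratios of pairs were taken from mean log2 differences, not from the means above. Rad23b was 5.53-fold above Nbn in 12 of 12 libraries, and Rad54b was 7.38-fold above Mms22l in 12 of 12. Without aCSF 5, where Mms22l had 2 reads, the log2 difference of Rad54b over Mms22l was 2.66, against 2.88 over the 12 libraries. Rad54b shares exons with Fsbp. With shared bases left out of the length, the log2 difference of Rad54b over Mms22l rose from 2.88 to 3.53. That of Rad1 over Rad54b went from 1.17 to 0.53. Reads in the shared exons were kept, so these shifts come from the length alone. They cannot show what the overlap adds to the Rad54b level. The middle steps were small, with Nbn 1.40-fold above Xpa in 10 of 12 libraries, Xpa 1.22-fold above Aptx in 11 and Aptx 1.24-fold above Rpa3 in 11. Nbn against Xpa turned to a log2 difference of -0.12 (exact permutation adjusted p = 0.300) and Aptx against Rpa3 to -0.30 (adjusted p = 0.00228) when the longest transcript replaced the union of exons as the length. The order of these 4 genes therefore depends on the length used, and that of Rad23b, Rad1, Rad54b and Mms22l kept its direction.

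**Figure D1:**
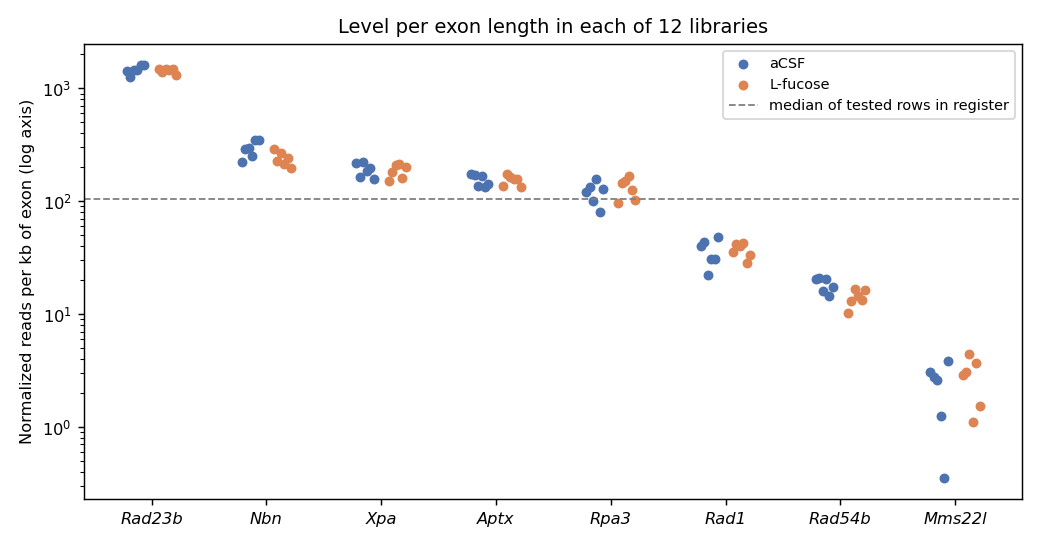
Level of each of the 8 genes in normalized reads per kb of exon (y axis, log scale), 1 point per library, aCSF in blue and L-fucose in orange, with the median of the 349 tested rows in register as a dashed line. Rad23b lies above 1000 in all 12 libraries, and Mms22l, the lowest, below 5 in all 12.

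Grouped by route, Rad23b and Xpa together had 1661 ± 135.1 normalized reads per kb in aCSF and 1626 ± 71.3 in L-fucose (SD, n = 6 each). Nbn and Rad54b together had 312.0 ± 48.5 in aCSF and 254.0 ± 35.0 in L-fucose, Aptx alone 154.7 ± 19.5 and 153.9 ± 15.0, and Rad1 and Mms22l together 38.3 ± 10.5 and 39.7 ± 5.47. Each sum is dominated by its first gene. The routes are represented by 1 or 2 genes each, so these are levels of the named genes and not of whole pathways.

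Comparing the groups asks what the sugar does to transcript levels during the incubation. None of the 8 genes changed at the adjusted threshold of 0.05 in limma, where 0% of the 10787 tested rows passed and 643 had an unadjusted p under 0.05. None passed with edgeR or limma-voom either (604 and 632 rows at an unadjusted p under 0.05), and DESeq2 called 1 row that is not among the 8, which is 0.00344% of the rows it tested. At an unadjusted p under 0.05 there was 1 of the 8, Nbn, against 5.96% of all tested rows and 8.31% of those in register. By direction these shares were 2.79% lower and 3.17% higher in L-fucose over all tested rows, and 6.88% lower and 1.43% higher in register. Log2 fold changes, L-fucose over aCSF after adding 1 to each value, were negative for 5 and positive for 3 of the 8, with a median of -0.016. The median was -0.05 over the tested rows in register, with 137 positive and 212 negative, and 0.01 over all tested rows. With size factors taken from the rows in register instead, 6 of the 8 were positive, Rad23b, Xpa and Aptx having turned, and the rows in register were 178 positive and 171 negative. Nbn and Rad54b stayed negative, at -0.23 and -0.33. In bulk tissue, fewer cells of a type and less RNA per cell cannot be told apart.

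**Figure D2:**
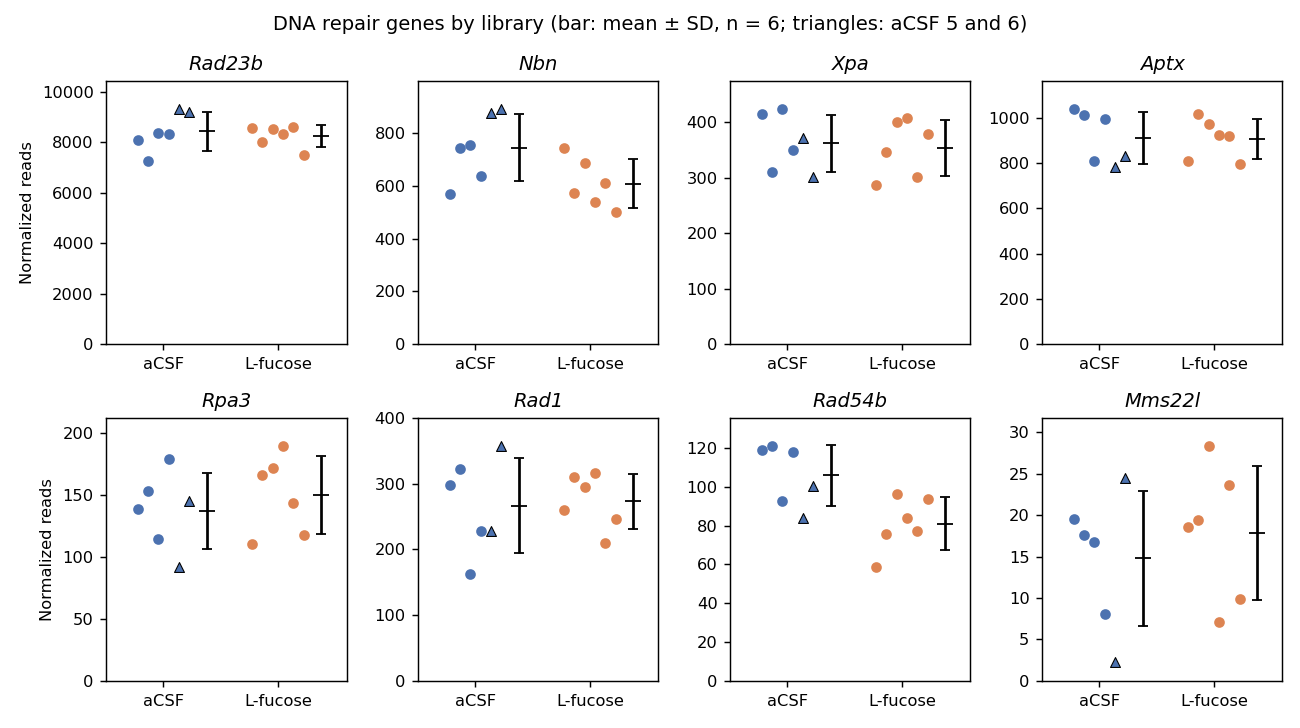
Normalized reads of each gene (y axis, from 0) in every library, aCSF in blue and L-fucose in orange, ordered by replicate number within a group, with mean ± SD of 6 libraries beside the points and triangles for aCSF 5 and 6. The groups overlap in all 8 genes. All 6 L-fucose libraries of Nbn and of Rad54b lie below the aCSF median, a pattern whose share over all tested rows was not counted.

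Nbn and Rad54b both had their L-fucose libraries on the lower side. Sem1, the other listed gene of double-strand break repair in register, did not. Its log2 fold change was 0.22 (interval -0.10 to 0.53), with 2 of 6 L-fucose values under the aCSF median. For Nbn (ENSMUSG00000028224, chromosome 4 from 15957925 to 15992589) the aCSF libraries 1 to 6 held 567, 742, 754, 636, 876 and 890 normalized reads. The L-fucose libraries 1 to 6 held 742, 572, 685, 537, 611 and 500. Each of the 6 L-fucose values lay under the aCSF median of 748, 3 aCSF libraries were above every L-fucose library, and aCSF 1 was among the low values. How many tested rows have all 6 L-fucose values under the aCSF median was not counted. Group means were 744 ± 128 in aCSF and 608 ± 91.5 in L-fucose (SD, n = 6 each). The log2 fold change was -0.29 (standard error 0.13, 95% confidence interval -0.56 to -0.01; limma, unadjusted p 0.0415, adjusted p 0.827). The highest values were those of aCSF 5 and 6, the libraries with the highest mitochondrial shares. The lowest value, 500, was that of L-fucose 6, whose share of 40.5% was close to that of aCSF 5. Without aCSF 5 and 6 the Nbn log2 fold change was -0.15, with an unadjusted p of 0.256 (limma, adjusted p 0.656).

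Rad54b (ENSMUSG00000078773, chromosome 4 from 11558922 to 11615805) had the lower level of the 2 and showed less overlap. The aCSF libraries 1 to 6 held 119, 121, 92.8, 118, 84.1 and 100.3 normalized reads, and the L-fucose libraries 58.9, 75.4, 96.1, 83.7, 77.2 and 93.7. Again each of the 6 L-fucose values lay under the aCSF median, here 109, with 4 aCSF libraries above every L-fucose library and 4 L-fucose libraries below every aCSF library. Means were 105.9 ± 15.6 in aCSF and 80.8 ± 13.7 in L-fucose (SD, n = 6 each). The log2 fold change was -0.39 (interval -0.81 to 0.03; limma, unadjusted p 0.0697, adjusted p 0.848). In contrast to Nbn, aCSF 5 and 6 were not among the 3 highest aCSF values, and without them the value was -0.48 (limma, unadjusted p 0.0368, adjusted p 0.420), in a fit where 11.3% of all rows had an unadjusted p under 0.05. Rad54b shares 35.8% of its exonic bases with Fsbp, a gene nested in it on the same strand, and how reads in shared exons were counted is not given in the sources used here. Fsbp itself held 28.2 ± 16.5 normalized reads in aCSF and 28.7 ± 18.8 in L-fucose.

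**Figure D3:**
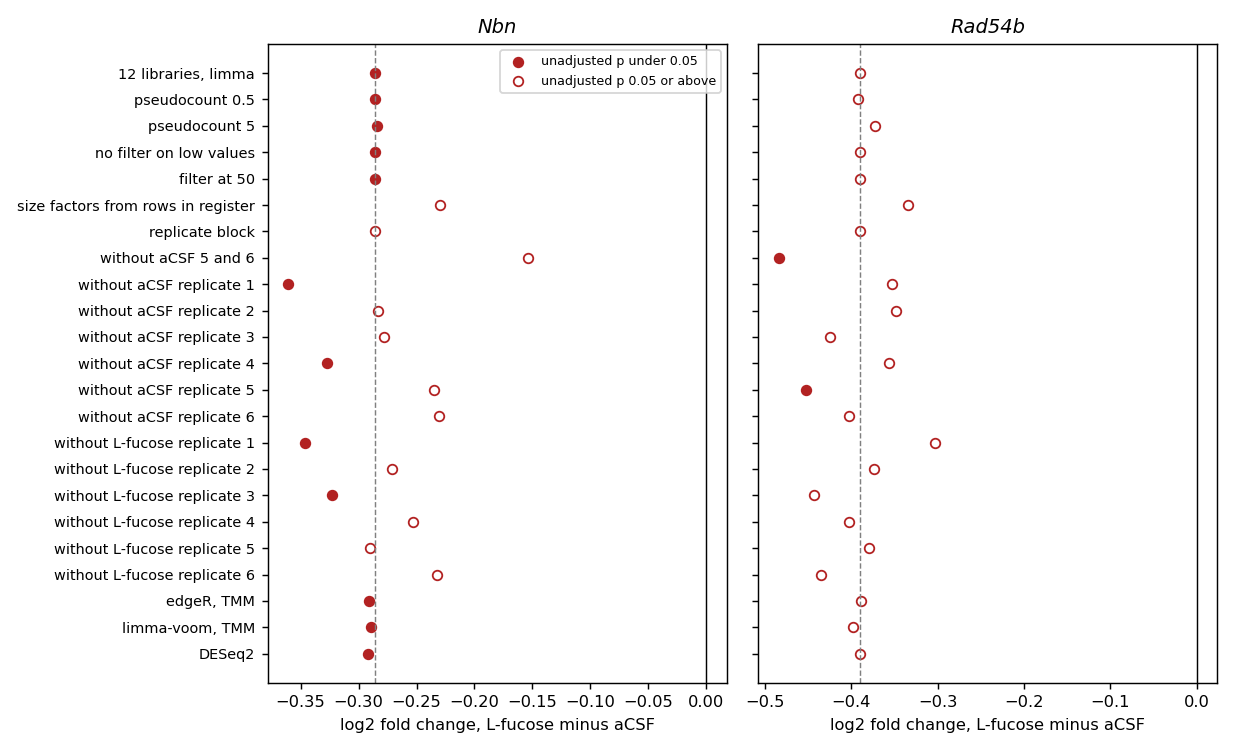
Log2 fold change of Nbn and Rad54b, L-fucose minus aCSF (x axis), under each processing alternative (rows), with filled points for an unadjusted p under 0.05 and a dashed line at the value from 12 libraries in limma. All values are negative; that of Nbn is nearest to 0, at -0.15, without aCSF 5 and 6, where Rad54b is farthest from 0, at -0.48.

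The intervals of Rad23b, Aptx and Xpa, genes of excision and single-strand break repair, all included 0. Rad23b (ENSMUSG00000028426, chromosome 4 from 55350043 to 55392237) held from 7260 to 9308 normalized reads in aCSF, with a median of 8345, and from 7477 to 8603 in L-fucose (median 8428). All 6 L-fucose libraries were inside the aCSF range. The log2 fold change was -0.027 (interval -0.20 to 0.14; limma, adjusted p 0.974). It was 0.043 without aCSF 5 and 6, which held the 2 highest values of Rad23b, 9308 and 9208.

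Aptx (ENSMUSG00000028411, chromosome 4 from 40682382 to 40703194) ran from 784 to 1037 normalized reads in aCSF and from 794 to 1017 in L-fucose, with medians of 911 and 920. Its log2 fold change was -0.0038, with an interval from -0.23 to 0.22 (limma, adjusted p 0.998). Xpa (ENSMUSG00000028329, chromosome 4 from 46155347 to 46196311) ran from 301 to 423 in aCSF and from 286 to 408 in L-fucose, with medians of 361 and 362. Its log2 fold change was -0.035, with an interval from -0.32 to 0.25 (limma, adjusted p 0.978). In both genes the groups overlapped over nearly their whole range. Xpa shares 4.07% of its exonic bases with Ncbp1, a subunit of the nuclear cap-binding complex on the other strand, at a log2 fold change of -0.11.

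Rpa3, Rad1 and Mms22l had positive fold changes with wide intervals. Rpa3 (ENSMUSG00000012483, chromosome 6 from 8255936 to 8259173) ran from 92.0 to 179 normalized reads in aCSF and from 111 to 190 in L-fucose, with medians of 142 and 155 and a log2 fold change of 0.13 (interval -0.28 to 0.55, limma adjusted p 0.944). Rad1 (ENSMUSG00000022248, chromosome 15 from 10486018 to 10499063) ran from 163 to 357 in aCSF and from 210 to 316 in L-fucose, with medians of 263 and 277 and a log2 fold change of 0.07 (interval -0.31 to 0.44, limma adjusted p 0.969). All 6 L-fucose libraries of Rad1 fell inside the aCSF range. The genes that start back to back with them had fold changes of 0.03 for Umad1 (interval -0.23 to 0.29) and -0.14 for Brix1 (-0.36 to 0.08), at 1128 ± 257 and 788 ± 106 normalized reads in aCSF. In each pair the partner gave more reads. Gm45062, which starts 277 bp from Rpa3 on the other strand, was at 0 in every library.

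Mms22l (ENSMUSG00000045751, chromosome 4 from 24496451 to 24602950) was at the limit of what these libraries can measure. It had between 2 and 32 reads per library, and the aCSF libraries 1 to 6 held 19.5, 17.6, 16.8, 8.06, 2.24 and 24.5 normalized reads. The L-fucose libraries held 18.6, 19.5, 28.3, 7.07, 23.6 and 9.87. Low values occurred in both groups. The log2 fold change was 0.39 (interval -0.80 to 1.58; limma, adjusted p 0.939), so a rise of 1 log2 unit lies within the interval. Without aCSF 5, the lowest library, it was -0.015.

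**Figure D4:**
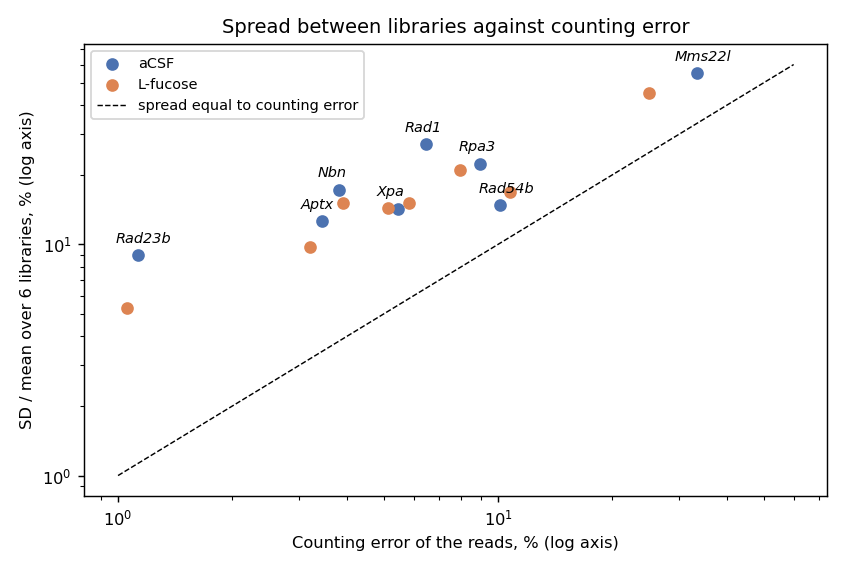
Standard deviation as a percent of the mean over the 6 libraries of a group (y axis, log scale) against the error from counting reads alone (x axis, log scale), for each gene in aCSF (blue, named) and L-fucose (orange), with a dashed line where both are equal. All 16 points lie above the line, Rad54b nearest to it in both groups.

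The precision of these comparisons followed the read numbers only in part. Rad23b had 7073 to 13174 reads per library, a counting error of 1.13% in aCSF, and a spread between aCSF libraries of 8.98%. For Nbn these were 3.82% and 17.2%, and for Rad1 6.47% and 27.1%, so most of their spread lay between libraries. Rad54b, with 57 to 131 reads, had a counting error of 10.1% and a spread of 14.8% in aCSF. In Mms22l the counting error was 33.3% and the spread 55.0%. Counting errors were computed from the reads as independent molecules, which PCR copies are not.

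The other listed genes of repair and damage response in register were 7. Sem1, a small partner of BRCA2 that is also a proteasome subunit, was the sole other gene of double-strand break repair, at 1236 ± 230 normalized reads in aCSF and 1449 ± 328 in L-fucose and a log2 fold change of 0.22 (interval -0.10 to 0.53). The 6 genes of damage signalling and chromatin had fold changes from -0.24 to -0.0083 with a median of -0.16, and 0 of 6 passed in limma, adjusted over all rows. Ufl1, the UFM1 ligase, was at -0.24 (-0.49 to 0.01), with 707 ± 127 normalized reads in aCSF and 592 ± 55.9 in L-fucose. Trp53inp1, a p53 target, was at -0.21 (-0.63 to 0.21) and Topors, a ubiquitin and SUMO ligase, at -0.20 (-0.41 to 0.02). In these 3 genes each of the 6 L-fucose values lay under the median of aCSF. The same held for the cell markers Cnr1 and Ptprz1, and the share of all tested rows with this pattern was not counted. Ing3, a subunit of an acetyltransferase complex, Sub1, a coactivator that binds single-stranded DNA, and Rnf20, a histone ubiquitin ligase, were at -0.12, -0.08 and -0.0083.

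Without aCSF 5 and 6, Sub1 turned to 0.04 and 5 of the 6 were negative, with a median of -0.13, and with size factors from the rows in register Rnf20 turned to 0.05 and the median was -0.10. In the whole lists, 24 nucleotide excision, 25 base excision and single-strand break, 35 double-strand break, 31 fork and checkpoint, 19 damage signalling and 7 mismatch repair genes had a row. Of these 16, 10, 17, 19, 13 and 5 were tested and 0 passed in limma, most of them rows outside the register whose names may not tell what was counted. Rpa3 is in 2 of these lists.

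**Figure D5:**
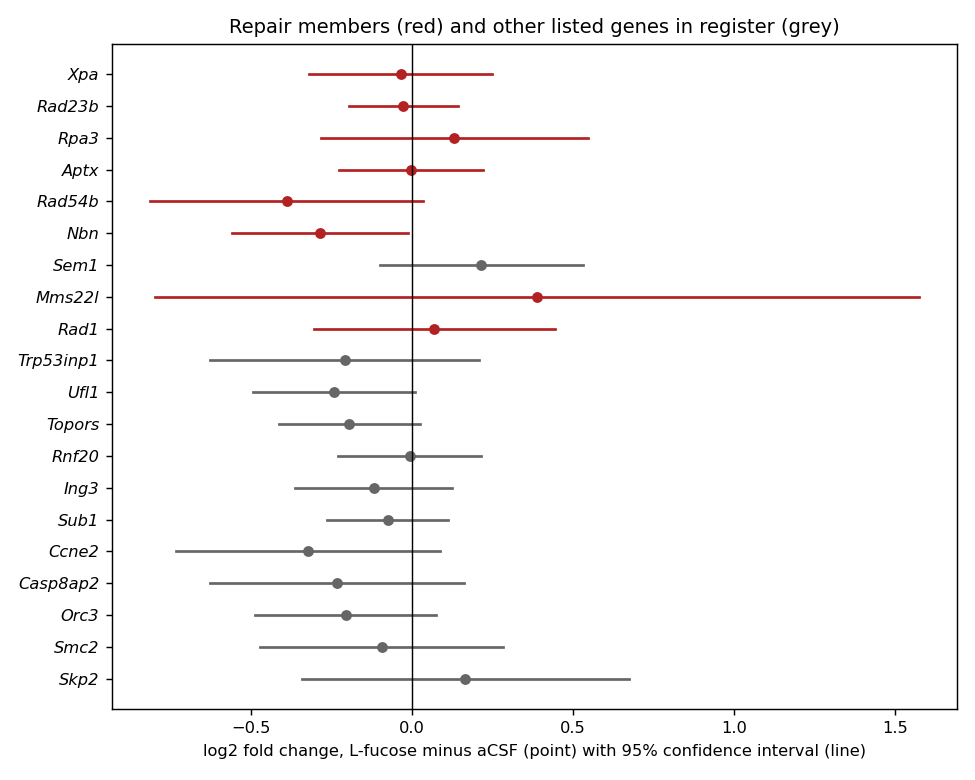
Log2 fold change, L-fucose minus aCSF, with its 95% confidence interval from limma (x axis) for the 8 genes (red) and the other listed genes of repair, damage response and cell division in register (grey). The interval of Nbn, from -0.56 to -0.01, is the sole one of the 20 that excludes 0.

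Genes of S phase and cell division were measured beside the repair genes because recombination is tied to replication. Ccne2, cyclin E2, was at 54.4 ± 14.5 normalized reads per kb, Orc3, an origin recognition subunit, at 112.7 ± 21.3 and Smc2, a condensin subunit, at 27.3 ± 5.06 (SD, n = 12). Skp2, a ubiquitin ligase subunit, was at 10.6 ± 2.74. Rad54b lay between Smc2 and Skp2 in level per kb. Their log2 fold changes were -0.32 for Ccne2, -0.23 for Casp8ap2, a factor of histone messenger RNA processing, -0.21 for Orc3, -0.09 for Smc2 and 0.17 for Skp2, and 0 of 5 passed in limma. The summed level of these 5 genes ran from 1249 to 1524 normalized reads in aCSF and from 1056 to 1314 in L-fucose. Orc3 gave the most to this sum, at 739 ± 153 in aCSF and 634 ± 84.8 in L-fucose. These sums overlapped between the groups and lay to the same side as Rad54b and Nbn, as did 212 of the 349 tested rows in register. Their part in the values of Rad54b and Nbn was not tested.

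Of the markers of neurons and other cells, 0 of 12 in register passed in limma. The summed neuronal markers in register ran from 47252 to 56350 normalized reads in aCSF and from 51315 to 57065 in L-fucose, a sum to which Basp1 and Gabbr2 gave the most. Log2 fold changes of these 8 neuronal markers were positive for 4 and negative for 4, with a median of -0.015. Cnr1 was at -0.13, with 6 of 6 L-fucose values under the aCSF median. Penk, the enkephalin precursor, was the farthest from 0 of the 8. It ran from 3075 to 9043 in aCSF and from 6537 to 12217 in L-fucose, with no L-fucose library under the aCSF median. The log2 fold change of Penk was 0.61 (interval 0.20 to 1.03; limma, unadjusted p 0.00572, adjusted p 0.827), and 0.88 without aCSF 5 and 6 (limma, adjusted p 0.234). Ptprz1, a receptor phosphatase of glia, ran from 5176 to 7468 in aCSF and from 4603 to 5845 in L-fucose, at a log2 fold change of -0.30 (interval -0.49 to -0.11, limma adjusted p 0.827). Lyn, a kinase of microglia and leukocytes, ran from 351 to 542 and from 277 to 497. Of the vascular, fibroblast and choroid plexus list, Prlr, the prolactin receptor, was at -0.57 (interval -1.18 to 0.03), with 5 of 6 L-fucose values under the aCSF median. Col1a2, a collagen chain, was at 0.24 (-0.05 to 0.54), with 0 of 6 under it, and their sum ran from 550 to 1252 in aCSF and from 705 to 1012 in L-fucose. Whether the makeup of the sections bears on Nbn or Rad54b was not tested.

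The tested row in register whose values followed each gene most closely was found by the root mean square difference of centred log2 values over 12 libraries, among 348 other rows. For Rad23b it was Dnaja1, a co-chaperone, at 0.073 log2 units against a median of 0.26 over the rows. For Nbn it was Impad1 at 0.13 (median 0.34), for Rad54b the imprinted gene Peg10 at 0.17 (0.39), and for Aptx the PHD finger gene Phf14 at 0.11 (0.30). Rpa3 was nearest to Aptx at 0.21, Xpa to Pnrc1 at 0.16 and Rad1 to Slc35a1, a sialic acid transporter, at 0.17. Mms22l had no close row, with Tstd2 nearest at 0.69. The measure favours rows with little spread and says nothing of shared control.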

How the data were processed

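RNA was measured by poly-A selected, random-primed RNA-seq in 6 aCSF and 6 L-fucose libraries, per the labels' protocols. Per the submitters' processing notes, the tools were HISAT2 2.2.1, Trimmomatic 0.39, DESeq2 2.11.40.8 and featureCounts 2.0.3, with build mm10; annotation release, strand setting and filters: not given in the sources used here. Deposited values are a normalized signal, reads over a size factor for each library. Dividing by the step of each library gave whole reads for 100% of values (tolerance 0.01 reads), and these reads were used where counts were needed. Identifiers were matched to GENCODE M21 of GRCm38, the assembly of mm10; 52073 of 56923 had a symbol.

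Rows that reached 10 in 6 or more libraries entered limma 3.58.1 on log2(value + 1) with an intensity trend, two-sided, with Benjamini-Hochberg adjustment over 10787 rows and a threshold of 0.05. Level per kb used the union of exons. Neighbours in level were compared by paired exact permutation over 4096 sign flips, for which the smallest p is 0.000488. The limma step was tested on simulated data. Alternatives used edgeR 4.0.16, limma-voom and DESeq2 1.42.0 on recovered reads, pseudocounts of 0.5 and 5, no filter, a filter at 50, size factors from rows in register, a replicate block and left-out libraries. The count of listed genes without aCSF 5 and 6 was added after seeing the data. Deviations of same-numbered libraries correlated at -0.168 to 0.17. Correlations between different numbers were not set beside these, so whether the numbers pair libraries was not decided. The members, lists, register bounds and alternatives were chosen with earlier results of these data known. Named were the 8 genes, listed genes in register, genes overlapping them or starting within 1000 bp on the other strand, and the nearest row of each. R 4.3.3, Python 3.11.15, numpy 2.4.6 and pandas 2.3.3 were used.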

Additional observations from a re-analysis of the deposited data

Results flagged for a closer look

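Of 80 groups of 6 values examined (the genes named from lists or as neighbours of the 8 repair genes, the mitochondrial share and the rows above 0), 4 had 1 library set well apart from the remaining 5; by chance about 5% of groups would. None was a group of the 8 repair genes. Ufl1 was 948 normalized reads in aCSF 5 against 604 to 723 in the other aCSF libraries, and the Ufl1 log2 fold change without aCSF 5 and 6 was -0.19. L-fucose 1 had 203 normalized reads of Smc2, the others between 114 and 141. Ptprz1 was 5845 in L-fucose 6 against 4603 to 5025. Gm11832, an antisense gene that shares 7 exonic bases with Rad54b, was 10.9 in L-fucose 2 against 0 to 3.04.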

How the results depend on the processing

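DESeq2 called 1 row, not one of the 8 genes, where limma, edgeR and limma-voom called 0, as did limma under its other settings and without each library in turn. Nbn stayed negative in all 22 alternatives and had an unadjusted p under 0.05 in 11, with adjusted p from 0.656 to 0.989; leaving out single libraries gave -0.36 to -0.23. Rad54b stayed negative in all 22 and had such a p in 2, with adjusted p from 0.420 to 0.989 and -0.45 to -0.30 without single libraries. Size factors from the rows in register turned Rad23b to 0.029, Xpa to 0.021 and Aptx to 0.053, and leaving out aCSF 5 and 6 turned Rad23b to 0.043. Without single libraries Rad23b ran from -0.069 to 0.0023, Xpa from -0.086 to 0.023, Aptx from -0.045 to 0.036, Rad1 from -0.062 to 0.16 and Mms22l from -0.015 to 0.61, and Rpa3 stayed positive. Mms22l did not reach the filter at 50 and has no value there. With the longest transcript as length, Nbn against Xpa was -0.12 and Aptx against Rpa3 -0.30; the other level differences kept direction and call. With a replicate block in limma 0 rows passed (585 under an unadjusted p of 0.05), and Nbn was at -0.29 with an unadjusted p of 0.0657 (limma adjusted p 0.901). Depth limits Mms22l most.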
